A study of Mus musculus with 16 samples.

Results

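The wide distal peaks are the broadest accessible regions outside promoters that differed between the non-NE and NE cells of mouse small cell lung cancer (SCLC). They were taken from the authors' lists of differential ATAC-seq peaks, which hold 40828 peaks that were more accessible in GFP high cells (opened) and 39539 that were less accessible there (closed). A listed peak was kept when it was 800 bp or wider and its centre lay over 1 kb from every transcription start site of the basic GENCODE annotation. The rule gave 696 of 80367 listed peaks, which is 1.03% of the 67449 listed distal peaks (95% Wilson interval 0.958% to 1.11%). Of these 696 members 591 were opened and 105 closed, beside 50.8% opened among all listed peaks and 47.1% opened among all listed distal peaks. The members were thus selected on the width of the merged peaks and on the authors' test of GFP high against GFP neg cells, and width, list and read level are given below as descriptions only.

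ATAC-seq reads out open chromatin through the insertions of the Tn5 transposase. The cells came from lung tumors of *TKO*;*Hes1* GFP/+ mice, which carry floxed *Rb*, *p53* and *p130* alleles deleted by intratracheal Ad-CMV-Cre, so that both populations lack all 3 genes and Cre was not restricted to a cell type. GFP is expressed from the endogenous *Hes1* locus, and tumors of a mouse were pooled before sorting GFP high (Hes1-GFP positive, non-NE) and GFP neg (Hes1-GFP negative, NE) cancer cells. The labels give 4 pairs of populations from 3 mice, 2 pairs being of the same mouse, and 8 libraries on 2 lanes each, which makes 16 runs. Each deposited peak carries values of the whole comparison, so no value per library, no SD and no depth per library can be given.

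Distal accessible regions are mostly enhancers, where sequence-specific factors bind side by side and displace nucleosomes. Broad accessible regions often hold several bound stretches, and dense groups of strong enhancers tend to lie near genes of cell identity. In the lung epithelium NKX2-1, forkhead, NFI and grainyhead-like factors act at such elements, TEAD factors carry the Hippo effectors YAP and TAZ to DNA, and bHLH factors bind E-boxes.

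From 200 bp upwards, the opened share and the read level of the distal peaks both rose with width. Opened peaks made up 45.2% of the distal peaks under 200 bp and 42.2% of those of 200 to under 400 bp. Their share was 56.2% from 400 to under 600 bp and 71.6% from 600 to under 800 bp. Among the members it was 84.5% of 555 peaks under 1000 bp (95% Wilson interval 81.3% to 87.3%), 85.3% of 116 from 1000 to under 1200 bp (77.8% to 90.6%) and 92.0% of 25 that were wider. Seen from the lists, 1.86% of the opened and 0.294% of the closed distal peaks were members. The 1415 promoter peaks of 800 bp or more were opened in 94.1%, so a high opened share was not particular to distal positions. At the width limit itself the shares did not step up: 48 of the 62 distal peaks that missed it by up to 10 bp were opened (77.4%, 65.6% to 86.0%) and 36 of the 55 that passed it by less than 10 bp (65.5%, 52.3% to 76.6%), with median mean normalized counts of 231 and 245.

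The read level of a peak is given as the authors' mean normalized count, a mean over the libraries of both populations. Its median over the members was 276, with the middle 50% between 187 and 392, and the narrower distal peaks a median of 27.4. Per kb of peak the medians were 303 and 110. Opened and closed members hardly differed, with medians of 300 and 308 per kb. As a mean over both populations, this count does not give the level in either of them. The opened share of the members was also nearly flat across levels. It was 85.7% of 175 members with a mean normalized count of 100 to under 200, 84.0% of 338 at 200 to under 400, and 85.4% of 158 at 400 or more. Narrower distal peaks of the same 3 levels were opened in 3350 of 5580, in 66.5% and in 65.2%. Within the members, width and mean normalized count per kb had a Spearman rho of 0.11 (n = 696), against 0.40 over the 66753 narrower distal peaks. These peaks share libraries, and a deeper peak is also called wider, so the values are descriptions.

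The widest member lay in an intron of *Mtus1*, which codes for a microtubule-associated protein, at chr8:41015109-41016839 on mm10. It was opened, measured 1731 bp and had the highest mean normalized count of all members, 1097. Next in width among the opened members were a region of 1632 bp that lay 33560 bp upstream of *Tspan11*, a tetraspanin gene (chr6:127853213-127854844), and one of 1492 bp that lay 47600 bp upstream of *Vgll4* (chr6:114968675-114970166). VGLL4 competes with YAP for TEAD factors. The widest closed member, 1472 bp at chr3:92080500-92081971, covered an exon of *Lor*, the gene of the cornified envelope protein loricrin. It was followed by an intergenic region of 1463 bp in the neighbourhood of *Cxcl13*, a B cell chemokine gene (chr5:96008821-96010283), and by a region of 1130 bp in an intron of *Vps13d* (chr4:144993266-144994395). The protein-coding start site nearest to the latter was that of *Dhrs3*, a retinaldehyde reductase gene. A closed member whose nearest protein-coding gene was *Basp1* had the same width of 1130 bp.

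Per kb, the opened members with the highest mean normalized counts lay near *Nr4a3* (1166 per kb, chr4:48042809-48043676), *Wnt7b* (1011 per kb, chr15:85634371-85635261) and *Foxo3* (1007 per kb, chr10:42277589-42278405). These genes code for an orphan nuclear receptor, a Wnt ligand of the lung epithelium and a forkhead factor. All 3 regions were rich in GC, at 69.5%, 64.5% and 67.2%. The regions near *Nr4a3* and *Foxo3* were 1910 and 1242 bp upstream of the start site, close to the limit of the rule, whereas that of *Wnt7b* was 52343 bp away. Of the closed members, those in introns of *Lmo7* (814 per kb, chr14:101804924-101805820) and *Ppp3ca* (758 per kb, chr3:136744255-136745073) and an intergenic region whose nearest gene was *Speer2* (725 per kb, chr16:69979730-69980558) came out highest. *Ppp3ca* encodes a catalytic subunit of calcineurin. These closed regions were poor in GC, at 42.1%, 43.1% and 39.1%.

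Opened members were intergenic more often than the narrower opened distal peaks (48.9%, 44.9% to 52.9%, against 39.2%), while for closed members the interval (42.9%, 33.8% to 52.4%) included the 40.6% of the narrower ones. By the position of the centre, 334 of all members were intergenic (48.0%, 95% Wilson interval 44.3% to 51.7%), 316 intronic (45.4%) and 46 exonic (6.61%, 4.99% to 8.70%). Among narrower distal peaks the shares were 40.0%, 55.8% and 4.20%. Closed members were farther from protein-coding start sites than opened members, with median distances of 58970 and 33680 bp, and the narrower closed and opened distal peaks showed the same order, with 48806 and 26645 bp. Only 12 members (1.72%) lay within 2 kb of a protein-coding start site, and no edge of a member came closer than 512 bp to a start site of the basic annotation. In the comprehensive annotation, which holds more transcripts, 50 members (7.18%) had a start site within 1 kb of their centre.

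The GC content of the members, a property that the rule did not use, centred at a median of 49.4% (middle 50% from 46.1% to 53.3%), close to the 48.9% of the narrower distal peaks. The upper end differed more: 63 members (9.05%, 7.14% to 11.4%) had a GC content of 60% or more, against 4.37% of the narrower distal peaks. CpG-rich sequence, meaning a GC content of at least 50% with an observed over expected CpG ratio of at least 0.6, made up 50 members (7.18%, 5.49% to 9.35%) and 2.27% of the narrower distal peaks. CpG-rich members leaned towards gene starts, being 7 of the 12 members within 2 kb of a protein-coding start site and 29 of the 581 over 10 kb away (4.99%, 3.50% to 7.08%). Narrower distal peaks leaned the same way, with 12.3% CpG-rich within 2 kb and 1.48% over 10 kb away. The 29 distant members included the regions near *Vgll4* (67.9% GC), *Wnt7b* and *Arid1a* (74.6% GC, chr4:133813162-133814462). The latter region lay 57043 bp upstream of *Arid1a*, the gene of a BAF chromatin remodelling subunit, and was named after its values were seen. GC content and mean normalized count per kb had a Spearman rho of 0.29 over the 591 opened and -0.06 over the 105 closed members, and GC content also affects amplification and read recovery. Only 1 member was masked as repeat over at least 50% of its length.

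Few members had another close by, and no share for placed or drawn regions was computed. Of 3 gap limits, the middle one left 12 of 696 with another member next to them (1.72%, 0.989% to 2.99%), always as a pair, while 5 kb left 0.575% and 25 kb 5.46%. The opened pair with the highest summed mean normalized count, 825, lay in introns of *Myof*, a YAP target gene of the Hippo list that codes for the membrane repair protein myoferlin, and spanned 10919 bp (chr19:38015236-38026154). Other opened pairs lay near *Gadd45g*, near *Fam49a*, in *Magi1* and between *Tm2d3* and *Pcsk6*, and the 105 closed members formed none. The closest opened and closed members had centres 5.53 kb apart (opened chr6:108536476-108537381, closed chr6:108530871-108531918). Both lay in introns, and their nearest protein-coding start site was that of *Bhlhe40*, the gene of a circadian bHLH repressor. It was 123700 bp from the opened and 129234 bp from the closed member. In the 50 kb on either side of an opened member, 72.6% of 4515 listed peaks were opened too, much as around narrower opened distal peaks (72.7%). Around closed members 70.4% of 621 were closed, and around narrower closed distal peaks 64.8%.

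Assigned to the nearest protein-coding start site, the opened members fell to 547 genes, of which 34 had 2 members and 5 had 3. The genes with 3 were *Dhrs3*, *Casz1*, *Mical2*, *Rad51b* and *Setd4*. *Casz1* encodes a zinc finger transcription factor, *Mical2* an actin-oxidizing enzyme, *Rad51b* a recombination protein and *Setd4* a methyltransferase. The summed mean normalized counts of their members ran from 639 for *Setd4* to 1686 for *Dhrs3*. Of the genes with 2 opened members, those with the highest summed counts were *Ptma* (1536), *Mal2* (1211), *Foxo3* (1044), *Scgb1a1* (858) and *Wwc1* (843). *Scgb1a1* is the defining secretoglobin gene of club cells, and *Wwc1* encodes KIBRA, an upstream regulator of the Hippo pathway that was not on the Hippo list used here. All of these genes except *Mal2* and *Wwc1* also had a listed promoter peak, which was opened in each case. Their distal peaks, members included, were not always mostly opened, with 14 opened and 16 closed for *Casz1* and 3 and 6 for *Mal2*.

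The 105 closed members fell to 99 genes, and 6 had 2 members. These were *Basp1*, *Nars2*, *Bach1*, *Ppargc1a*, *Arrdc4* and *Phex*. *Basp1* codes for a growth cone protein of neurons, and it alone of the 6 also had a listed promoter peak, which was closed. *Bach1* encodes a haem-regulated repressor, *Ppargc1a* the coactivator of mitochondrial biogenesis, and *Arrdc4* an arrestin-like protein. The remaining places by the rule for named genes went to *Lor*, *Lmo7*, *Noct* and *Ppp3ca*, with 1 closed member each. *Noct*, the gene of the rhythmic phosphatase nocturnin, had 27 closed against 4 opened distal peaks, and *Nars2* had 22 against 1. The closed lead was not shared by all 10 named genes to this degree, since *Lmo7* had 26 closed against 18 opened and an opened promoter peak, and *Lor* no listed distal peak but the member.

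Genes with members of both lists numbered 10: *Bhlhe40*, *Cblb*, *Dhrs3*, *Fzd8*, *Irs2*, *Klf12*, *Maml2*, *Nfib*, *Noct* and *Phlda1*. For *Nfib*, the gene of an NFI factor with a known role in SCLC, the opened member was in an intron 200722 bp downstream of the start site (chr4:82304114-82305056) and the closed member 158543 bp upstream (chr4:82663895-82664731). Their mean normalized counts were 299 and 124. For the Notch coactivator gene *Maml2* an opened and a closed member in introns lay 240 kb apart, with mean normalized counts of 229 and 249. Across the members, the nearest protein-coding gene had an opened but no closed promoter peak for 46.2% of opened members (42.2% to 50.2%) and for 9.52% of closed members (5.26% to 16.6%). A closed but no opened promoter peak was found for 7.28% and 21.0%, and no listed promoter peak for 44.3% and 68.6%. The narrower distal peaks had 43.4% and 19.3% for opened promoters and 6.72% and 25.3% for closed promoters, and none listed for 47.5% and 53.1%.

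Genes of the Notch pathway had 5 opened members and 1 closed member, over 5 of 22 genes. At *Hes1*, the Notch target whose locus drives the GFP used for sorting, the member was opened and 1387 bp upstream of the start site (chr16:30063434-30064471), with a mean normalized count of 886 and a GC content of 76.3%. It therefore belongs to the locus on which the cells were sorted. The other opened members, the last 2 being named beyond the rule, were in introns of the coactivator genes *Maml3* (mean normalized count 677) and *Maml2*, 108540 bp upstream of the ligand gene *Jag1* (188, chr2:137224742-137225626) and near the ligand gene *Dll1* (130). Of all distal peaks of the Notch list, 110 were opened and 119 closed.

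Genes of the Hippo list had 3 opened members, at *Vgll4* and *Myof*, and 1 closed member in an intron of *Amotl1* (chr9:14574660-14575563), which codes for an angiomotin that binds YAP. Its mean normalized count was 392. The Hippo list had 167 opened and 44 closed distal peaks in all, so that 79.1% were opened and 1.90% were members. The neuroendocrine list had 113 opened and 290 closed distal peaks, of which 3 were members: the pair at *Nfib* and an opened region whose nearest protein-coding start site was that of *Sox4*, 214725 bp away. No member was assigned to *Insm1*, which codes for a zinc finger repressor, or to *Chga*, which codes for chromogranin A. Members were 0.744% of the distal peaks of this list, against 1.03% of all distal peaks.

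Among lung epithelial markers, the club cell list had 4 opened members and none closed, at *Scgb1a1* (2 members), *Scgb3a2* and *Cyp2s1*. These were 6.25% of its distal peaks, which numbered 51 opened and 13 closed. Members were 1.03% of all distal peaks, 1.86% of the opened and 0.294% of the closed, so the share of a list depends on its mix. Other lists also lay above 1.03%, with 4.55% for ciliated, 3.39% for AP-1 and stress and 3.00% for alveolar genes. The Notch list had 2.62% and the adhesion and matrix list 1.63%. The members of *Scgb1a1* lay 2722 and 19274 bp upstream of the gene, with mean normalized counts of 226 and 632, and that of *Scgb3a2* lay 5007 bp upstream with 282. The alveolar list, with 75 opened and 25 closed distal peaks, had 3 opened members and none closed, namely 2 upstream of the surfactant gene *Sftpb* (mean normalized counts 430 and 395) and 1 in an intron of *Clic5* (354), an AT1 gene. The ciliated list, with 21 opened and 23 closed distal peaks, had an opened member in *Dynlrb2* (405) and a closed member assigned to *Rfx3* (266) that lay in an intron of *Glis3*. Of the AP-1 and stress list, with 36 opened and 23 closed distal peaks, *Fos* had an opened member (418) and *Egr1* a closed member (422). At such numbers, and with 84.9% of all members opened, nothing is read from the balance of the lists. The adhesion and matrix list had opened members near the fibronectin gene *Fn1* (430) and the integrin gene *Itga3* (159).

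Markers of cells outside the epithelium were also looked up, since the sort removed CD45, CD31 and TER-119 positive cells. The leukocyte, endothelium and fibroblast lists, of 9, 7 and 8 genes, had no member, at a share of 1.03% members over all distal peaks. They had 18 opened and 8 closed, 15 opened and 48 closed, and 9 opened and 10 closed distal peaks. Whether admixed cells contributed to any member was not tested.

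Short binding strings were searched without mismatches on both strands: GGAATG for TEAD, TGTTTAC for forkhead (FOX), TGACTCA for AP-1, CACTTGA or CACTCAA for NKX2, AACCACA for RUNX, CAGCTG for an E-box of bHLH factors, CCATTGT for SOX, GTGGGAA for RBPJ, CTTGGCA for an NFI arm and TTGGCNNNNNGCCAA for the full NFI element, with which the arm overlaps. GGGTGTGGC or GGGCGGGGC stood for KLF and SP factors, CCGGAAG for ETS, ATGCAAAT for POU, AACCGGTT for grainyhead-like (GRHL), TTGCGCAA for C/EBP and TTCAGCACC for the left arm of the REST element, and CTCF was searched by its consensus. In the central 200 bp of all 80367 listed peaks, the shares with a match were 13.5% for TEAD, 8.25% for FOX, 14.7% for AP-1, 9.34% for NKX2, 6.01% for RUNX, 17.2% for the E-box, 3.78% for SOX and 4.89% for RBPJ. They were 6.63% for the NFI arm, 0.0709% for the full NFI element, 3.67% for KLF, 2.38% for ETS, 1.33% for POU, 0.209% for GRHL, 0.0958% for C/EBP, 0.325% for the REST arm and 0.957% for CTCF. A match describes the letters and does not show binding.

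The members were searched in the central 200 bp and over the whole peak. The TEAD string was in the central 200 bp of 17.8% of the opened members (14.9% to 21.1%) and 11.4% of the closed (6.66% to 18.9%), and somewhere in 53.3% (49.3% to 57.3%) and 39.0% (30.3% to 48.6%). Per kb it occurred 0.899 times in opened and 0.537 times in closed members, and 1.04 and 0.478 times in the narrower distal peaks of the 2 lists. The wide opened peaks were thus not denser in TEAD strings than narrow ones, although a longer sequence holds more matches. The density over opened distal peaks was 1.25 per kb under 200 bp, 0.938 from 400 to under 600 bp and 0.907 from 800 to under 1000 bp. Along the opened members it was 1.07 per kb within 100 bp of the centre and 0.740 beyond 400 bp. At least 2 TEAD strings were found in 124 opened members (21.0%), in 8 closed members (7.62%) and in 4.77% of the narrower opened distal peaks. A pair started within 50 bp in 29 opened members (4.91%) and 1 closed member.

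Over the whole peak, AP-1 and E-box strings were the more frequent in closed members. AP-1 was in the central 200 bp of 6.77% of the opened (5.01% to 9.09%) and 13.3% of the closed members (8.11% to 21.1%), and somewhere in 32.0% (28.3% to 35.8%) and 53.3% (43.8% to 62.6%). This is 0.411 and 0.832 matches per kb, beside 0.466 and 1.05 in narrower distal peaks, so the order of the lists was not particular to wide peaks. Among members of 1000 bp or more, of which few were closed, the central AP-1 difference of opened minus closed turned from -6.57 to 3.75 percentage points. The E-box was in the central 200 bp of 13.0% of the opened (10.6% to 16.0%) and 19.0% of the closed members (12.7% to 27.6%), with overlapping intervals, and somewhere in 46.9% of the opened (42.9% to 50.9%) and 68.6% of the closed members (59.2% to 76.7%), at 0.711 and 1.32 matches per kb. Narrower distal peaks had nearly the same E-box densities, 0.694 and 1.24, and at 1000 bp or more the central difference was -0.216 points. SOX strings hardly differed in the central 200 bp (2.71% and 2.86%). Over the whole peak SOX strings, which occurred somewhere in 9.98% of opened (7.82% to 12.7%) and 26.7% of closed members (19.1% to 35.8%), gave 0.111 and 0.348 matches per kb, beside 0.142 and 0.266 in narrower distal peaks. An E-box and an AP-1 string stood in the same member in 14.6% of opened and 38.1% of closed members.

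Over the whole peak, RUNX, NKX2 and KLF strings were the more frequent in opened members. RUNX was somewhere in 28.4% of opened (24.9% to 32.2%) and 12.4% of closed members, and NKX2 in 40.1% (36.2% to 44.1%) and 29.5% (21.6% to 38.8%), with overlapping intervals. In the central 200 bp NKX2 was in 13.5% and 9.52%, and at 1000 bp or more this difference turned from 4.01 to -14.0 points. In narrower distal peaks RUNX occurred 0.458 and 0.202, NKX2 0.581 and 0.435 and KLF 0.151 and 0.0780 times per kb. These strings thus leaned to the opened list there too, as did the NFI arm (0.442 and 0.267) and RBPJ (0.308 and 0.218). KLF strings were in 12.2% (9.79% to 15.1%) and 2.86% (0.976% to 8.07%), and were denser at high GC content: members of at least 50% GC held 0.337 per kb if opened and 0.145 if closed, and those under 50% GC 0.0369 and 0. The NFI arm was in 28.4% (24.9% to 32.2%) and 18.1% (11.9% to 26.5%), FOX in 28.8% (25.3% to 32.5%) and 23.8% (16.7% to 32.8%) and RBPJ in 23.2% of the opened members and in 21 of the 105 closed. For FOX the members had 0.353 matches per kb if opened and 0.316 if closed, and the intervals of the 2 shares overlapped. The narrower distal peaks had 0.365 matches per kb if opened and 0.471 if closed. No change of order with width is read from this. The central RBPJ difference turned from 2.79 to -11.7 points at 1000 bp or more. FOX strings were sparsest at the edges of opened members, with 0.161 per kb beyond 400 bp against 0.406 within 100 bp of the centre.

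The remaining strings were rare. ETS was found in 6.43% of opened and 6.67% of closed members, POU in 6.43% and 5.71% and the REST arm in 1.02% and 2.86%. GRHL was in 5 opened members, C/EBP in 3 and the full NFI element in 3, and in no closed member, which at 105 members allows up to 3.53% (95% Wilson interval). For CTCF the share of opened distal peaks with a central match fell with width. Its consensus was in the central 200 bp of 2.66% of opened distal peaks under 200 bp, 1.46% from 200 to under 400 bp, 0.232% from 400 to under 600 bp and 0.0511% from 600 to under 800 bp. None of the 591 opened members had it there (95% Wilson interval up to 0.646%), while 6 had it elsewhere in the peak. Over the whole peak, its matches per kb in opened distal peaks were 0.184 under 200 bp and 0.00730 from 800 to under 1000 bp. From 1000 to under 1200 bp they were 0.0284, from only 3 matches, so that fall was not steady.

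Sequences of the opened member with the most TEAD strings and of *Vgll4*, picked for its width, are given below from the plus strand of the GRCm38.p6 genome of RefSeq (the assembly of mm10), with matches to the named strings in capitals. The *Gcnt2* intron member (chr13:40868592-40869489, mean normalized count 230) held 6 TEAD strings, the most of any member, of which 4 fall in 196 bp around its centre. The *Vgll4* member held 4 TEAD strings within CpG-rich sequence, and the stretch shows the inner pair. *Gcnt2* codes for a branching glycosyltransferase.
*Gcnt2*, TEAD, chr13:40868971-40869166: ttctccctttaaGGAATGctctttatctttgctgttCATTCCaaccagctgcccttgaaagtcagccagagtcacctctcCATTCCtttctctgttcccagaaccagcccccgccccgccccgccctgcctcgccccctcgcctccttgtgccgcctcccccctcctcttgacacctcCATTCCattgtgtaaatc
*Vgll4*, TEAD, chr6:114969268-114969487: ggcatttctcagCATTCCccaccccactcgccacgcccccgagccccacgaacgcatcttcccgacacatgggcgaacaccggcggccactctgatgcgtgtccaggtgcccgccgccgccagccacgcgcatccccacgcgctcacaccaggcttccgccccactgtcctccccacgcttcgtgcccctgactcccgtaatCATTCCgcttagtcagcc

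The next stretches come from the opened members with the most AP-1, FOX, NKX2, RUNX and full NFI matches, where ties (2 members for FOX, 5 for RUNX and 3 for NFI) went to the higher mean normalized count. Near *Mrpl33* (chr5:31576457-31577552, mean normalized count 371), 36934 bp upstream of this mitochondrial ribosomal protein gene, 3 AP-1 strings lie in 149 bp and a pair of them start 13 bp apart. The *Rad51b* intron member (chr12:79531670-79532735, 285) held 3 FOX strings, of which 2 are shown. The member whose nearest protein-coding gene was *Tex29* (chr8:11911491-11912335, 138) held 5 NKX2 strings, of which 3 are shown. In the *Eps8* intron (chr6:137540543-137541540, 372), a gene of an actin regulator, 2 of 3 RUNX strings start 27 bp apart on opposite strands. The region 123844 bp upstream of *Tmc1* (chr19:21077626-21078465, 667) held the NFI element.
*Mrpl33*, AP-1, chr5:31576808-31576956: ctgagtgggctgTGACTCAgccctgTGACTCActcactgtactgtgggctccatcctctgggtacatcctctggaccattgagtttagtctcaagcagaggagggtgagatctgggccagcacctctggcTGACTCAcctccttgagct
*Rad51b*, FOX, chr12:79532203-79532418: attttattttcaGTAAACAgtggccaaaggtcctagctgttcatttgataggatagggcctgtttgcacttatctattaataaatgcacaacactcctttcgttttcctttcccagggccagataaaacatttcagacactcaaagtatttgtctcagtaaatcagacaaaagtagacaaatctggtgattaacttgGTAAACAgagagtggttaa
*Tex29*, NKX2, chr8:11912018-11912268: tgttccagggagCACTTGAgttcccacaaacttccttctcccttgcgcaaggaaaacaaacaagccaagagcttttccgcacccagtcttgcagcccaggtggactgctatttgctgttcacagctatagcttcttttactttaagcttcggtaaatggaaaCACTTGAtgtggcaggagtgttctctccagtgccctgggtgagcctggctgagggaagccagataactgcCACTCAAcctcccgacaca
*Eps8*, RUNX, chr6:137541428-137541485: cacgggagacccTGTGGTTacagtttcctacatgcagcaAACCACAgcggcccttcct
*Tmc1*, NFI, chr19:21077670-21077708: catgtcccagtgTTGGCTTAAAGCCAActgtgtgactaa

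Stretches from 2 members at lung epithelial genes show different strings side by side. At least 4 of the TEAD, FOX, AP-1, NKX2, RUNX, NFI arm and E-box strings were in 23.9% of opened (20.6% to 27.5%) and 16.2% of closed members (10.4% to 24.4%), and none of them in 6.26% and 1.90%. The member 27149 bp upstream of *Sftpb* (chr6:72277027-72277893) held NKX2, FOX, TEAD and AP-1 strings within 218 bp. In the member nearest to *Scgb1a1* (chr19:9090270-9091090) an RBPJ and an NKX2 string lie next to each other. The *Espn* member (chr4:152138406-152139284, mean normalized count 413), in an exon of this actin-bundling protein gene, had the most KLF strings of the opened members, 6, and was named after its values were seen. Its stretch shows 3 of them.
*Sftpb*, NKX2, FOX, TEAD and AP-1, chr6:72277212-72277429: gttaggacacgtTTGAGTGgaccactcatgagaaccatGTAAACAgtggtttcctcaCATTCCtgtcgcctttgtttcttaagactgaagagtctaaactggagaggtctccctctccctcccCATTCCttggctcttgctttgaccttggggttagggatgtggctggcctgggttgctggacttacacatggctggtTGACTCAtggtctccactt
*Scgb1a1*, RBPJ and NKX2, chr19:9090303-9090348: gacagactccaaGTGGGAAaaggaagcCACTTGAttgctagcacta
*Espn*, KLF, chr4:152138917-152139012: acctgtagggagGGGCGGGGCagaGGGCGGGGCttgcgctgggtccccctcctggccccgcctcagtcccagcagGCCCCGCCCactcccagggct

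Of the closed members, that nearest *Adra1b* (chr11:43919460-43920261, mean normalized count 213), the gene of an adrenergic receptor, held the most AP-1 strings, 4, and 2 of them are shown. The member 147713 bp upstream of *Irs2*, an insulin receptor substrate gene (chr8:11155754-11156587, 151), had the most TEAD strings of the closed list, 3, by the same rule for a tie of 2 members, together with 3 AP-1 strings and 3 E-boxes. A pair of its AP-1 strings start 13 bp apart, the same spacing as in the opened *Mrpl33* member. The *Irs2* stretch does not hold all of the strings named. The member whose nearest protein-coding gene was *Gpbp1* (chr13:111397282-111398239, 256) held 3 FOX strings that start 22 and 32 bp apart, between 2 E-boxes, and the *Tenm4* intron member assigned to *Nars2* (chr7:96661146-96662072, 449) held 4 NKX2 strings, all shown, of which 2 overlap on opposite strands. The RUNX rule picked the *Ppp3ca* intron member again, with 2 strings as in 3 other members, and no closed member held the full NFI element. The *Lor* exon member had the most E-boxes, 12, and was looked up after its values were seen. Its stretch lies in coding sequence of this glycine-rich protein, and 4 of the E-boxes are shown.
*Adra1b*, AP-1, chr11:43919956-43920032: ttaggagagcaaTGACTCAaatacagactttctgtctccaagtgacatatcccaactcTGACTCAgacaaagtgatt
*Irs2*, TEAD and AP-1, chr8:11155983-11156174: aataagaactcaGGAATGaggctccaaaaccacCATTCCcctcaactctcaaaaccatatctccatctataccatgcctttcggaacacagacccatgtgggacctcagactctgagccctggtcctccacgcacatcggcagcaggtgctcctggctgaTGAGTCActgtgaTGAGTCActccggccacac
*Gpbp1*, FOX and E-box, chr13:111397694-111397879: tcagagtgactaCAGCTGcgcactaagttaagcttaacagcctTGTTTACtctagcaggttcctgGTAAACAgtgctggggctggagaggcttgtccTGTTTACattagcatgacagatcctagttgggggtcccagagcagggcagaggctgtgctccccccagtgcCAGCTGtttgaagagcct
*Tenm4* intron, NKX2, chr7:96661420-96661571: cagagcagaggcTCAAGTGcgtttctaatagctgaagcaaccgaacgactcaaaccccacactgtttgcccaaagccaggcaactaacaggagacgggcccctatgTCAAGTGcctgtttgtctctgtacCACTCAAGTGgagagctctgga
*Lor*, E-box, chr3:92081061-92081261: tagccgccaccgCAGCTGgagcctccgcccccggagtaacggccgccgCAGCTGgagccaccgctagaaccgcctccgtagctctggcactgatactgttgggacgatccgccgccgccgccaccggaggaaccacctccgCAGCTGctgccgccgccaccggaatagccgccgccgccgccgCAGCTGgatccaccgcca

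On the autosomes, members were between 0.770% (chromosome 3) and 1.38% (chromosome 16) of the distal peaks. On chromosome X they were 0.443%, the lowest share among chromosomes with members. Chromosome X had 6 members, of which 2 were opened, and the autosomes ranged from 74.2% opened on chromosome 3 (31 members) to 95.3% on chromosome 2 (43 members).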

How the data were processed

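ATAC-seq peaks were analysed from 8 libraries (16 runs) of sorted GFP high and GFP neg cells. By the paper's methods and the submitters' processing notes, the authors trimmed the reads, aligned them to mm10 with Bowtie2 2.3.4.1, removed duplicates, ran MACS2 for narrow peaks (read ends shifted for Tn5), merged the peaks of all samples, counted reads per merged peak and compared the groups with DESeq2 1.28.1. In the deposited tables the signal of a peak is its mean count across libraries after size-factor scaling. The deposited tables also hold the authors' log2 fold changes, standard errors, test statistics and p-values, which were not used here beyond membership in a list. Depth per library is unknown, and whether lanes or the 2 pairs of the same mouse were summed is not given in the sources used here.

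Positions, 1-based, were set against the basic GENCODE vM21 annotation and the RefSeq GRCm38.p6 sequence in Python 3.11.15 with numpy 2.4.6 and pandas 2.3.3. Exact strings of 17 families were searched in each peak and in a central window of 200 bp, which reaches beyond peaks narrower than that. Functions were tested on simulated data. Shares carry Wilson intervals at 95%, which cover counting error only, and no test was run. By rule, the peaks named were in each list the 3 widest, the 3 highest per kb and those with the most TEAD, FOX, AP-1, NFI, NKX2 and RUNX matches, and the genes named were the 10 with the most members and up to 4 members per gene list, with *Jag1* and *Dll1* added. The lists were Hippo, Notch, neuroendocrine, club, alveolar, ciliated, AP-1 and stress, adhesion and matrix, leukocyte, endothelium and fibroblast. The members, lists and strings were chosen with earlier results of these data known. Alternatives were other limits on width, start-site distance, annotation, read level, merging, window and gap, of which the comprehensive annotation, the distance from the nearest edge and the limit on GC content were chosen after seeing the data.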

Additional observations from a re-analysis of the deposited data

How the results depend on the processing

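Of 130 alternative values 98 were called the same, 79 by lying in the interval of the reported value and 19, which have none, by a limit of 1.5 on the ratio of the counts or, for matches per kb, on that of the density in each list, with the sign kept. Another 31 moved and 1 reversed, a term kept for reported differences whose interval excluded 0, and the cause was not tested. In 12 the sign of an opened minus closed difference turned. With a width limit of 1000 bp there were 141 members, with 600 bp 3432. The opened share was 74.3% at 600 bp and 79.8% when peaks of a list within 100 bp were merged. The median per kb was 340 at 1000 bp and 240 at 600 bp, and median GC content at 1000 bp was 50.8%. Motif differences are opened minus closed, in percentage points. Over the whole peak they were 14.3 for TEAD, -21.4 for AP-1, 10.3 for the NFI arm, 10.6 for NKX2, 16.0 for RUNX, 9.33 for KLF, -16.7 for SOX, 0.715 for POU (reported -1.84), -21.7 for the E-box and 1.02 for CTCF. In the central 400 bp they were -18.3 for AP-1, 10.2 for RUNX, 4.53 for KLF and -21.2 for the E-box. At 1000 bp, with few closed members, they were 7.38 for FOX, and signs turned for NKX2 (4.01 to -14.0), RBPJ (2.79 to -11.7), SOX (-0.150 to 3.28) and the NFI arm (0.546 to -0.690), whose reported intervals included 0, and for AP-1 (-6.57 to 3.75), the reversed value. Without peaks of 60% GC or more, a setting chosen after seeing the data, the differences in matches per kb were 0.00607 for GRHL, 0.0886 for KLF, 0.0112 for ETS (reported -0.0144) and 0.000786 for the REST arm (reported -0.0206). The share with another member nearby was 0.575% for gaps of 5 kb and 5.46% for 25 kb. No paired analysis was possible because no values per library were used here, and for the same reason no library or mouse could be left out.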
